A study of Mus musculus with 8 samples.

Results

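The genes described here are 8 genes of the extraembryonic endoderm, Gata6, Dab2, Sparc, Serpinh1, Pth1r, Col4a1, Afp and Apoe. They were followed on 8 cDNA microarrays with 2 colours, on which the mouse embryonic stem (ES) cell lines HM-1 and R1 were set against each other. Probes were taken by gene symbol. The 8 genes were measured by 16 probes, of 14030 probes for 9930 named genes. They were picked with the ratios of these arrays known: Sparc, Serpinh1, Dab2 and Pth1r had shown large ratios of 1 sign, and Gata6, Afp and Col4a1 had not. Their ratios between the lines are therefore a description, with no test.

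RNA of both lines was hybridised together on every array. On 4 arrays both lines had been treated with nocodazole, which keeps microtubules from forming so that cells stop in mitosis, and on 4 arrays both were untreated. HM-1, a line deficient in Hprt, carried Cy5 on nocodazole replicates 1, 2 and 3 and on untreated replicates 1 and 2, and Cy3 on nocodazole replicate 4 and untreated replicates 3 and 4. R1, another ES cell line much used for gene targeting, carried the other dye each time. The design text of the series speaks of 50% dye swaps, whereas the labels give HM-1 in Cy3 on 3 of 8 arrays. The labels give no dose or duration of the drug. They also leave unsaid whether each replicate was a culture of its own, and the p-values below measure no more than the array-to-array spread, which may be technical. The labels' protocols also speak of organs and a pooled control, which the channel labels do not match.

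Primitive endoderm is the layer that forms on the surface of the inner cell mass, and ES cell cultures can give rise to it spontaneously. The factor Gata6 starts the programme, and the endocytic adaptor Dab2 is needed for the layer to take its place at the surface. Its descendants are parietal endoderm, which lays down a thick basement membrane of type IV collagen, laminin and Sparc, and visceral endoderm, which absorbs nutrients and secretes Afp and apolipoproteins.

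Each value below is a log2 ratio between the lines with the sign of the deposited table, with the median of each array set to 0. The sources do not say which line is the numerator, so neither line is called higher. The authors' code for a ratio with a denominator of 0 was positive on the 5 arrays with HM-1 in Cy5, nocodazole replicate 1 among them, and negative on the 3 arrays with HM-1 in Cy3. A ratio in bulk RNA cannot tell fewer cells of a type apart from less RNA per cell. Arrays were weakly correlated over all features (Pearson's r across features, which are not independent replicates, 0.018 to 0.22 in the 13 pairs labelled alike and -0.23 to -0.0069 in the 15 pairs labelled oppositely).

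The sequence before the annotated start is shown for 3 genes that shared a sign on every array, Sparc, Serpinh1 and Dab2. It is also shown for Col4a1, which shares the basement membrane with Sparc but not its ratios. Each line holds the 250 bases before the start (RefSeq, build GRCm38.p6), 5′ to 3′ on the gene's strand, and Dab2 is shown at the most upstream of its 2 annotated starts. Capitals mark matches to any of 4 motifs, searched on both strands. The GATA motif was taken as the core bound by Gata factors, either AGATAA itself or the form that begins with another base, TGATAA in full, and the forms of each that end in another base, written AGATAG where the first base is unchanged and otherwise TGATAG in its letters. The GC box was GGGCGG in these searches. The CCAAT box was its own name, and the TATA box was the run TATAAA alone.
Sparc (chr11:55420081-55420330, - strand): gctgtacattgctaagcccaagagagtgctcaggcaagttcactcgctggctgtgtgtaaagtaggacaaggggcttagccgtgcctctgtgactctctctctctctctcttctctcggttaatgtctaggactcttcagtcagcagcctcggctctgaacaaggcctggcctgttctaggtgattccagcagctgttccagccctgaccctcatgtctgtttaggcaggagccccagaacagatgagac
Serpinh1 (chr7:99353240-99353489, - strand): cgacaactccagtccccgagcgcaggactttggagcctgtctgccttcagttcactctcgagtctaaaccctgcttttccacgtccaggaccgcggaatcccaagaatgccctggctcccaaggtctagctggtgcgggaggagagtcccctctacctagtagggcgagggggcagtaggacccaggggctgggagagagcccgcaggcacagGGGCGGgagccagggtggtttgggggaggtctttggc
Dab2 (chr15:6299539-6299788, + strand): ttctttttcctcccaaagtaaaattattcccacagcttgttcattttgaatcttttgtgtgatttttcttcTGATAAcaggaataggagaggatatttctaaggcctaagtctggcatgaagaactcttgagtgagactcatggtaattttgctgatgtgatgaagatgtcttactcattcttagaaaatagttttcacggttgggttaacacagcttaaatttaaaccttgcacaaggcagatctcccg
Col4a1 (chr8:11312827-11313076, - strand): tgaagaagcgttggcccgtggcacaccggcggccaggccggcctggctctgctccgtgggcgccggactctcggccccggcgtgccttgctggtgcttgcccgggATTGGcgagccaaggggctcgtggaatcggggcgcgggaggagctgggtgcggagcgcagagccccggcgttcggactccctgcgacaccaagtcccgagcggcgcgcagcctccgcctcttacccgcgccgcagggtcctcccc

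Of all 32851 windows of this length in the table, 26.5% held a GATA motif, 32.7% a GC box, 33.8% a CCAAT box and 12.4% a TATA box. The Dab2 window held 1 GATA motif, from 179 to 174 bases before the start. At the other Dab2 start, not shown, the window held none of the 4 motifs and was 60.0% G and C. The Serpinh1 window held 1 GC box, from 37 to 32 bases before its start. The Col4a1 window held 1 CCAAT box on the opposite strand, and the Sparc window none of the 4 motifs. The base composition was as varied: G and C made up 54.0% of the Sparc window, 63.6% of the Serpinh1 window, 36.8% of the Dab2 window and 74.4% of the Col4a1 window, against a median of 52.4% over all windows. The windows of Pth1r, Afp and Apoe were searched as well, and 1 of the 7 genes with a window had a GATA motif at its most upstream start. A match is a description of letters and not a binding site.

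Sparc, Serpinh1, Dab2, Pth1r and Apoe had one pattern on the 8 arrays. All 5 were negative on nocodazole replicates 2 to 4 and on the 4 untreated arrays, and all 5 were positive on nocodazole replicate 1. Gata6 and Afp stayed near 0 on both sides of it, and Col4a1 rested on probes that disagreed. Over all 11681 features with a value on every array, 2.6% were negative on 7 arrays and positive on nocodazole replicate 1, and 7.37% were negative on all 4 untreated arrays. Nothing is read from the 5 of 8 beside these shares, since the genes had been picked on these ratios.

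Gata6, the early factor of the lineage, was measured by 1 probe. It was at -0.21, -0.23, 0.16 and 0.17 on nocodazole replicates 1 to 4, against -0.53, 0.22, 0.25 and 0.33 on untreated replicates 1 to 4. Untreated replicate 1 was low and the other untreated arrays lay close together, and the groups overlapped. The means were -0.029 ± 0.22 with nocodazole and 0.068 ± 0.40 untreated (SD, n = 4 each), both within 1 SD of 0. Nocodazole replicate 1, where the 5 genes stood apart, was inside the range of its other arrays.

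Dab2 links receptors of the LDL receptor family to clathrin. Its 1 probe was at 1.27, -0.82, -1.22 and -1.08 on nocodazole replicates 1 to 4, against -0.92, -1.06, -1.21 and -0.94 on untreated replicates 1 to 4. The untreated arrays were all negative with little spread, at a mean of -1.03 ± 0.13 (SD, n = 4), and nocodazole replicates 2 to 4 averaged -1.04 ± 0.20 (SD, n = 3), with 1 array above the untreated range and 1 just below it. With replicate 1 the nocodazole mean was -0.46 ± 1.17 (SD, n = 4), a spread wider than the mean. Untreated arrays of both dye labels had like values, with a mean of -0.99 where HM-1 carried Cy5 and -1.07 where it carried Cy3.

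Sparc, a matrix glycoprotein that binds collagen, was measured by 3 probes. The mean of the probes was at 1.23, -1.22, -1.12 and -1.25 on nocodazole replicates 1 to 4, against -0.68, -0.88, -0.68 and -0.97 on untreated replicates 1 to 4. Nocodazole replicates 2 to 4 were all lower than every untreated array, and nocodazole replicate 1 was above all of them. Nocodazole replicates 2 to 4 averaged -1.20 ± 0.071 (SD, n = 3) and untreated arrays -0.80 ± 0.15 (SD, n = 4). The nocodazole mean over its 4 arrays was -0.59 ± 1.22 (SD).

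The 3 Sparc probes did not give the same untreated ratios. Probes 8471 and 11087 differed by at most 0.15 on any array and averaged -1.09 ± 0.25 and -1.05 ± 0.21 untreated (SD, n = 4 each). Probe 5137 averaged -0.27 ± 0.29 untreated (SD, n = 4), with 0.097 and -0.19 on untreated replicates 3 and 4, where the other probes lay between -1.43 and -1.07. With nocodazole the probes came together: on replicates 2 to 4 probe 5137 was at -1.24, -0.91 and -1.12, and probe 8471 at -1.15, -1.22 and -1.38. The gap of the gene mean between nocodazole replicates 2 to 4 and the untreated arrays thus came largely from probe 5137.

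Serpinh1 is a chaperone of procollagen in the endoplasmic reticulum. Its mean over 2 probes was 1.25, -0.84, -0.71 and -1.09 on nocodazole replicates 1 to 4, against -0.52, -0.62, -1.03 and -1.07 on untreated replicates 1 to 4. Untreated arrays split by dye label, at a mean of -0.57 with HM-1 in Cy5 and -1.05 with HM-1 in Cy3. The nocodazole array with HM-1 in Cy3, replicate 4, was the lowest of its group. Probe 3791 had no value on untreated replicate 2, so that array rests on probe 2034 alone. The 2 probes differed by a median of 0.29 over 7 arrays and had the same sign on each. Group means were -0.35 ± 1.07 with nocodazole and -0.81 ± 0.28 untreated (SD, n = 4 each), and nocodazole replicates 2 to 4 averaged -0.88 ± 0.19 (SD, n = 3).

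Pth1r, the receptor for parathyroid hormone and its related peptide, which promotes the formation of parietal endoderm, was measured by 1 probe. It was at 0.83, -0.61, -0.38 and -0.71 on nocodazole replicates 1 to 4, against -0.73, -0.54, -0.67 and -0.78 on untreated replicates 1 to 4. The untreated spread was narrow, at -0.68 ± 0.10 (SD, n = 4), and nocodazole replicates 2 to 4 averaged -0.57 ± 0.17 (SD, n = 3). All 4 nocodazole arrays gave -0.22 ± 0.71 (SD).

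Col4a1, the main chain of basement membrane collagen together with Col4a2, had 4 probes that disagreed. The gene mean was at -1.28, 0.65, 0.15 and 0.11 on nocodazole replicates 1 to 4, against 0.15, 0.21, 0.070 and 0.15 on untreated replicates 1 to 4. The close untreated values, at 0.14 ± 0.058 (SD, n = 4), were an average over probes far apart: on untreated replicate 1 the 4 probes stood at -0.035, 1.86, -0.33 and -0.90. Probe 8611 had a value on every array, all between -0.15 and 0.27. Probes 19383 and 19618 had a value on 4 arrays each and the code for a denominator of 0 on 1 array each. Of these values, 3 of 4 and 2 of 4 were the quotient of 2 integers no larger than 10, to within 0.0015 in log2. At most 19.4% of all values of any array were of that kind. On nocodazole replicate 1, where the gene mean was low, probe 19383 was at -3.995, probe 19618 at -1.11, probe 19384 at -0.29 and probe 8611 at 0.27. With only the probes that had a value on all arrays, an alternative added after seeing the data, Col4a1 averaged 0.10 with nocodazole and 0.11 untreated.

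Sparc, Serpinh1, Dab2, Pth1r, Gata6 and Apoe had no such integer quotient among their values. None of their 9 probes carried the code, and the single missing value among them was that of Serpinh1 probe 3791.

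**Figure D1:**
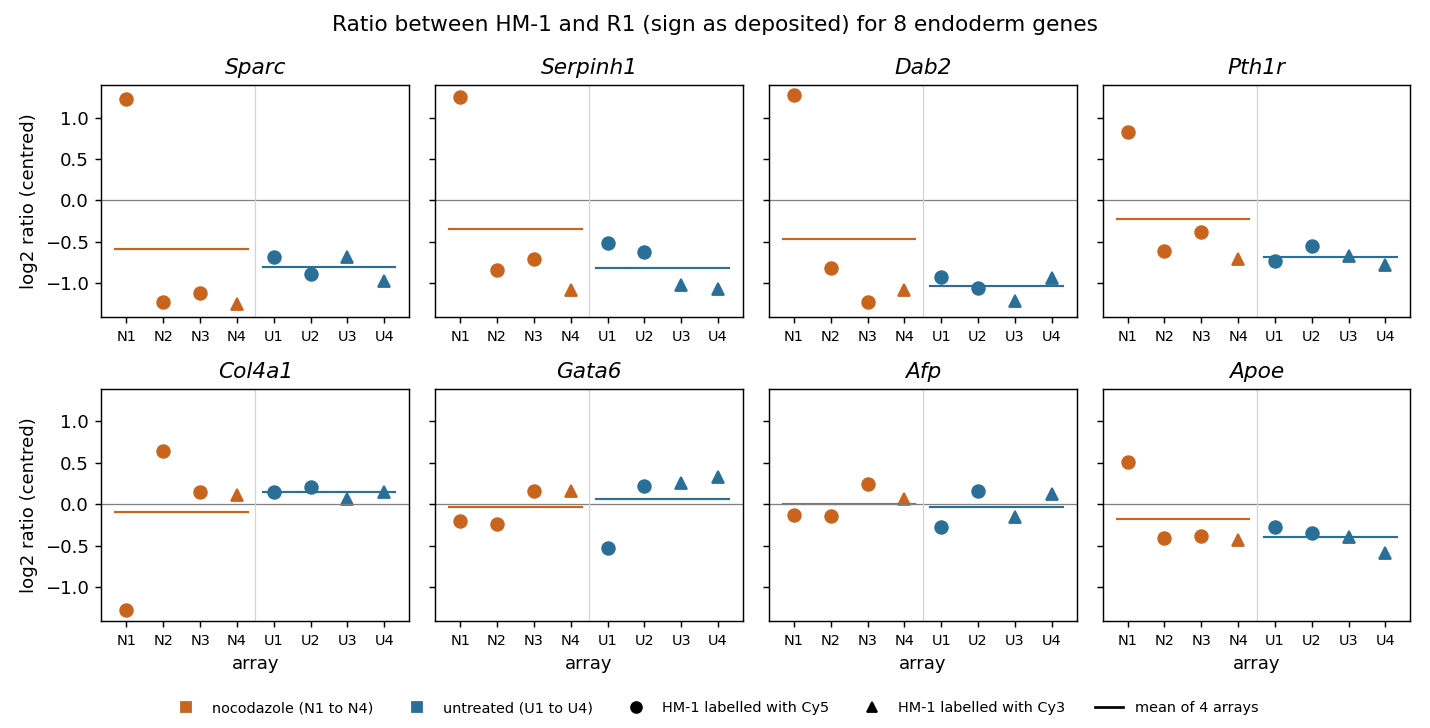
The centred log2 ratio of each of the 8 genes (vertical axis, mean of its probes) on nocodazole replicates 1 to 4 (N1 to N4) and untreated replicates 1 to 4 (U1 to U4), with circles for HM-1 in Cy5, triangles for HM-1 in Cy3 and lines for group means. Sparc, Serpinh1, Dab2, Pth1r and Apoe are positive on N1, at 0.51 to 1.27, and negative on the other 7 arrays, while Gata6 and Afp stay between -0.53 and 0.33.

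**Figure D2:**
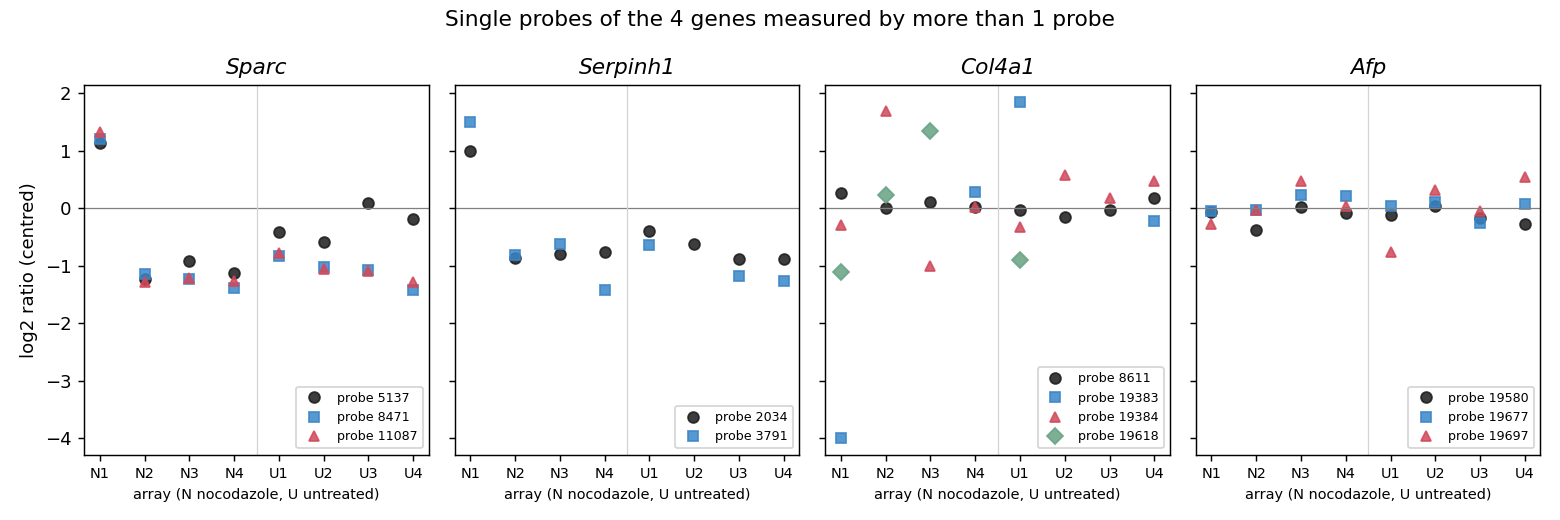
The centred log2 ratio (vertical axis) of every probe of Sparc, Serpinh1, Col4a1 and Afp on nocodazole (N) and untreated (U) arrays. All Sparc and Serpinh1 probes are positive on N1, the Col4a1 probes scatter between -3.995 and 1.86, and the 3 Afp probes lie between -0.76 and 0.55.

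Apoe, a lipid carrier made by visceral endoderm and by many other cells, was measured by 1 probe. It had the pattern of Sparc, Serpinh1, Dab2 and Pth1r at a smaller size. It was at 0.51, -0.40, -0.38 and -0.43 on nocodazole replicates 1 to 4, against -0.28, -0.35, -0.39 and -0.59 on untreated replicates 1 to 4. Nocodazole replicates 2 to 4 spanned only 0.050 around their mean of -0.40 ± 0.025 (SD, n = 3), inside the untreated range, whose mean was -0.40 ± 0.13 (SD, n = 4). The mean of the 4 nocodazole arrays was -0.18 ± 0.46 (SD).

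Afp, the fetal serum protein secreted by visceral endoderm, did not share it. Its mean over 3 probes was -0.13, -0.14, 0.25 and 0.058 on nocodazole replicates 1 to 4, against -0.28, 0.16, -0.16 and 0.12 on untreated replicates 1 to 4. Both groups held both signs, at 0.0093 ± 0.18 with nocodazole and -0.038 ± 0.21 untreated (SD, n = 4 each). The probes ran loosely together, with Pearson's r between 0.091 and 0.44 over the 8 arrays, and probe 19697 had the widest range.

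With the deposited signs, in order of untreated means, the genes ran from Dab2 (-1.03) through Serpinh1 (-0.81), Sparc (-0.80), Pth1r (-0.68), Apoe (-0.40), Afp (-0.038) and Gata6 (0.068) to Col4a1 (0.14). Within arrays, Pth1r was below Apoe on 4 of 4 untreated arrays, with a difference of -0.28 ± 0.12 (SD, n = 4). Apoe was below Afp on 3 of 4. The other neighbours differed by less than the SD of their difference, with that order on 1 to 3 of 4 arrays. With nocodazole the means ran from Sparc (-0.59) through Dab2, Serpinh1, Pth1r, Apoe, Col4a1 and Gata6 to Afp (0.0093), and every pair of neighbours differed by less than the SD of the difference. With the arrays of HM-1 in Cy3 turned, the order of untreated means was another, with Gata6 lowest (-0.22) and Serpinh1 highest (0.24). These are ratios between lines and not amounts of one gene against another.

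On nocodazole replicate 1 the 5 genes had the other sign at a size of 1.22 to 1.49 times that elsewhere. The absolute value there was 1.22 times the mean absolute value of the other 7 arrays for Dab2, 1.26 times for Sparc and for Apoe, 1.31 times for Pth1r and 1.49 times for Serpinh1, against 0.76 times for Gata6 and 0.77 times for Afp. For Col4a1, also of the other sign there, it was 6.06 times. The array had the most values (19342, with 19286 on the next), an SD of the log2 ratios of 0.84 (0.78 to 1.28 on the others) and 14.1% of integer quotients. Why its sign differed for these genes was not tested.

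Reading the deposited signs the other way on the 3 arrays with HM-1 in Cy3 changed these means. With those arrays turned, Sparc averaged 0.035 with nocodazole and 0.022 untreated, Dab2 0.077 and 0.041, Serpinh1 0.20 and 0.24, Pth1r 0.14 and 0.042, and Apoe 0.039 and 0.089, in that order of groups. Col4a1 averaged -0.15 with nocodazole and 0.037 untreated, Gata6 -0.11 and -0.22, and Afp -0.020 and -0.022. Under that reading the untreated arrays of opposite dye cancel, whereas with the deposited signs the 4 untreated arrays of these 5 genes have one sign. The labels do not settle which reading holds. In the deposited values the code for a denominator of 0 was negative on these 3 arrays. It was positive on the 5 arrays with HM-1 in Cy5.

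The change of the ratio between conditions, nocodazole minus untreated, was tested over all 14015 features with limma (a fit over the 8 arrays with a term for the dye label, Benjamini-Hochberg adjustment, threshold 0.05). Treated and untreated cells never shared an array, so this is a change of the ratio between lines and not a response of either line. None of the 8 genes passed, and 0% of all features did (0 of 14015, with 467 or 3.33% at an unadjusted p under 0.05, 0 of the 8 genes among them). The untreated and nocodazole ratios were known when the genes were picked, so the test is not independent of that choice.

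The intervals of the change were wide for the genes with the opposite sign on nocodazole replicate 1. Dab2 had a fitted change of 0.47 (SE 0.57, 95% interval -0.90 to 1.84), Pth1r of 0.38 (SE 0.35, -0.46 to 1.22) and Serpinh1 of 0.29 (SE 0.50, -0.90 to 1.48). Sparc was at 0.11 (SE 0.60, -1.32 to 1.54) and Apoe at 0.16 (SE 0.24, -0.42 to 0.74). The adjusted p in limma was 0.997 for each of these 5. Gata6 had a change of -0.0059 (SE 0.21, -0.51 to 0.50), Afp of 0.061 (SE 0.18, -0.36 to 0.48) and Col4a1 of -0.22 (SE 0.43, -1.24 to 0.80), with adjusted p in limma between 0.997 and 0.9996. Nocodazole and untreated arrays overlapped for all 8 genes, while 2.08% of the 11681 features did not overlap.

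Nocodazole replicate 1 decided these values. Without it the change of Sparc was -0.41 (SE 0.14), of Serpinh1 -0.14 (SE 0.13), of Dab2 -0.019 (SE 0.16), of Pth1r 0.091 (SE 0.14) and of Apoe -0.025 (SE 0.13), with adjusted p in limma between 0.985 and 0.994. With its sign turned they were -0.42 (SE 0.13), -0.25 (SE 0.17), -0.073 (SE 0.16), 0.026 (SE 0.15) and -0.055 (SE 0.12) for the same genes in that order, with adjusted p in limma between 0.990 and 0.994. With the arrays of HM-1 in Cy3 turned, Sparc was at 0.42 (SE 0.58) and Dab2 at 0.47 (SE 0.57).

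**Figure D3:**
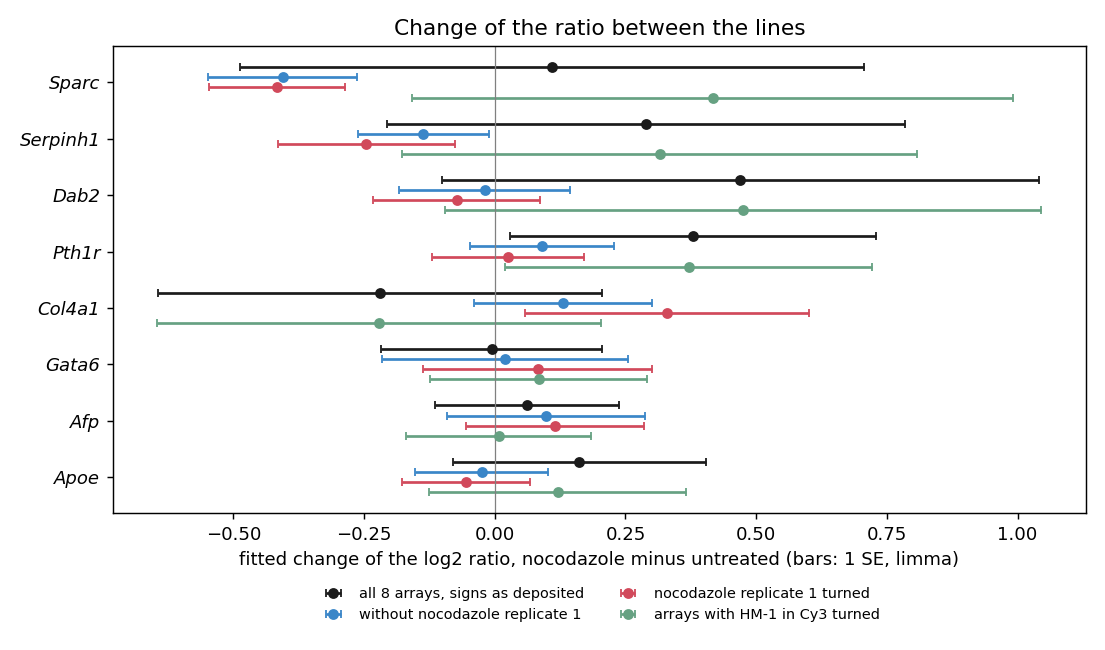
The fitted change of the log2 ratio, nocodazole minus untreated (horizontal axis, bars of 1 SE from limma), for each of the 8 genes under 4 readings of the arrays. Without nocodazole replicate 1, or with it turned, the bars of Sparc, Serpinh1, Dab2, Pth1r and Apoe shorten, and Sparc lies at -0.41 and -0.42.

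The dye label was tested in the same fit as the ratio with HM-1 in Cy5 minus that with HM-1 in Cy3. The coefficient was largest for Serpinh1, at 0.70 (SE 0.51), then for Sparc at 0.40 (SE 0.62), Dab2 at 0.40 (SE 0.59), Pth1r at 0.33 (SE 0.36) and Apoe at 0.25 (SE 0.25), with negative values for Gata6 (-0.37, SE 0.22), Col4a1 (-0.075, SE 0.44) and Afp (-0.053, SE 0.18). None passed (adjusted p in limma 0.646 to 0.969), and 0% of the features did, with 1284 or 9.16% at an unadjusted p under 0.05, 0 of the 8 genes among them. Without nocodazole replicate 1 the coefficient of Serpinh1 was 0.41 (SE 0.13, adjusted p 0.596) and those of Sparc, Dab2, Pth1r and Apoe were 0.060, 0.073, 0.14 and 0.12. Without nocodazole replicate 4 Sparc, Dab2 and Pth1r were at 0.045, 0.082 and 0.084, and without untreated replicate 1 Gata6 was at -0.17.

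The genes closest to 4 of the 8 were taken by Pearson's r over the 8 arrays among the other 7487 named genes with a value on each, a description over points that share arrays. For Sparc these were Ap2m1, a subunit of the clathrin adaptor AP-2 (r = 0.99), the neuronal intermediate filament gene Prph (0.99) and the cardiac actin gene Actc1 (0.99). They remained close without nocodazole replicate 1, with r of 0.95, 0.86 and 0.84 over 7 arrays. Ap2m1 was at 0.75 on that array, at -0.63 ± 0.11 on nocodazole replicates 2 to 4 (SD, n = 3) and at -0.37 ± 0.098 untreated (SD, n = 4).

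For Dab2 the closest were Txndc2, Slc13a5 and S100a6 (r = 0.98, 0.97 and 0.97), but over the 7 arrays without nocodazole replicate 1 their r was 0.19, 0.22 and 0.33, so the likeness rested on that array. Txndc2 was at 3.14 there and at 0.13 ± 0.17 untreated (SD, n = 4). Apoe was closest to Ubap2l, Mrps30 and the galectin gene Lgals3 (r = 0.99, 0.99 and 0.98, or 0.96, 0.88 and 0.81 over 7 arrays). Gata6 had other companions, Chac2, Iqcf1 and Rtn1 (r = 0.97, 0.96 and 0.96), with almost the same r over 7 arrays (0.96 each). Among the 8 genes themselves, Serpinh1 and Apoe had r = 0.98 over 8 arrays and 0.79 over 7, whereas Sparc and Dab2 had 0.94 and -0.15, and Dab2 and Pth1r 0.94 and -0.48.

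The other genes of the lineage and of its neighbours were taken from lists set down by role. Earlier results of these data were known by then, so their likeness to the 8 genes is a description. No gene of any list passed the test of the change or of the dye label in limma. Over all 14015 features the median ratio was 0.01 on nocodazole replicate 1, -0.0037 over the means of nocodazole replicates 2 to 4 and -0.00075 over the untreated means, and 51.6% were positive on nocodazole replicate 1, 50.7% negative over nocodazole replicates 2 to 4 and 50.2% negative untreated. These and the list values below carry the deposited signs. Over the 8 genes described here the same medians were 0.67, -0.49 and -0.54. With the arrays of HM-1 in Cy3 turned, the 8 genes had medians of -0.11 over nocodazole replicates 2 to 4 and 0.039 untreated. The medians of the other lists then lay between -0.21 and -0.035 over nocodazole replicates 2 to 4 and between -0.20 and 0.25 untreated.

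Further markers of parietal endoderm had list medians with the signs of the 5 genes. Of 19 listed genes 9 had a probe and 7 were tested. Of these 7, 6 were positive on nocodazole replicate 1, 7 were negative over nocodazole replicates 2 to 4 and 6 were negative untreated, with medians of 0.32, -0.69 and -0.22. With the arrays of HM-1 in Cy3 turned, the last medians were -0.16 over nocodazole replicates 2 to 4 and -0.0045 untreated. The shares of all features with these signs were 51.6%, 50.7% and 50.2% in the deposited values. The counts use group means: on each of the 4 untreated arrays 3 of the 7 genes were negative, as 907 of the 14015 tested features were. The lowest over all arrays were Krt8, a keratin of simple epithelia, at -1.12 ± 0.18 on nocodazole replicates 2 to 4 (SD, n = 3) and -0.98 ± 0.34 untreated (SD, n = 4), and Pga5, at -1.43 ± 2.09 and -0.18 ± 0.25. The highest were the intermediate filament gene Vim, at -0.25 ± 0.0997 and -0.22 ± 0.21, and the complement regulator Cd55, at -0.23 ± 0.0091 and -0.15 ± 0.19, in the same order of groups and numbers of arrays.

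Basement membrane genes other than Col4a1 had medians closer to 0 than the parietal list. Of 20 listed, 12 had a probe and 10 were tested, with medians of 0.095 on nocodazole replicate 1, -0.13 over nocodazole replicates 2 to 4 and -0.026 untreated. Col4a2, the partner chain of Col4a1, was at -2.55 ± 0.35 on nocodazole replicates 2 to 4 and 0.36 ± 1.67 untreated (SD, n = 3 each), and the laminin chain gene Lamc1 at -0.72 ± 0.65 (SD, n = 3) and -0.33 ± 0.57 (SD, n = 4). At the other end Smoc2 was at 0.91 ± 1.74 (SD, n = 3) and -0.14 ± 0.39 (SD, n = 4), and the nidogen gene Nid2 at 0.82 ± 0.65 (SD, n = 2) and 0.85 ± 2.69 (SD, n = 3). Most of these spreads were wider than the means.

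Partners of Serpinh1 in the folding of procollagen had a negative median over nocodazole replicates 2 to 4 and one close to 0 over the untreated means. Of 21 listed genes 17 had a probe and 15 were tested. Their medians were 0.11 on nocodazole replicate 1, -0.38 over nocodazole replicates 2 to 4 and -0.037 untreated, and 10 of 15 untreated means were negative. On single arrays the list median lay between -0.30 and -0.026 for nocodazole replicates 2 to 4 and between -0.20 and -0.12 untreated. P4ha1, a catalytic subunit of prolyl 4-hydroxylase, was at -0.54 ± 0.053 on nocodazole replicates 2 to 4 (SD, n = 3) and -0.83 ± 0.98 untreated (SD, n = 4). The channel gene Tmem38b was lowest over all arrays, at 0.13 ± 1.04 (SD, n = 2) and -0.92 ± 3.02 (SD, n = 3). The isomerase gene Fkbp14, at 0.12 ± 0.16 and -0.018 ± 0.15, and the coat protein gene Sec23a, at 0.17 ± 0.28 and 0.087 ± 0.11, were highest (SD, n = 3 nocodazole and n = 4 untreated).

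Primitive endoderm factors had wide spreads of single genes. Of 24 listed genes 14 had a probe and 11 were tested, with medians of -0.15 on nocodazole replicate 1, -0.17 over nocodazole replicates 2 to 4 and 0.039 untreated. Sox17, a factor that acts in the same lineage, was at 0.76 on nocodazole replicate 1, at -0.80 ± 0.21 on nocodazole replicates 2 to 4 (SD, n = 3) and at -0.91 ± 2.37 untreated (SD, n = 4), where single arrays reached from -4.36 to 1.06. The growth factor receptor gene Pdgfra was at -1.33 ± 3.18 and -0.25 ± 0.97, Klf5 at -0.17 ± 0.22 and 0.62 ± 1.28, and Fgfr1 at 0.88 ± 1.41 and 0.13 ± 0.98 (SD, n = 3 nocodazole and n = 4 untreated).

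Visceral products had medians near 0, with single genes on either side. Of 30 listed genes 25 had a probe and 22 were tested, with medians of 0.085 on nocodazole replicate 1, -0.040 over nocodazole replicates 2 to 4 and -0.034 untreated. Spink1, a trypsin inhibitor, was at 1.14, -0.91 ± 0.12 (SD, n = 3) and -0.9995 ± 0.32 (SD, n = 4) on these arrays. The fatty acid binding protein gene Fabp1 was at -3.88, -0.41 ± 2.95 (SD, n = 3) and -0.15 ± 0.33 (SD, n = 4). The apolipoprotein gene Apoc1 (0.52 ± 0.13 on nocodazole replicates 2 to 4 and 0.017 ± 0.85 untreated; SD, n = 3 and n = 4) and the peptidase gene Dpp4 (0.31 ± 0.25 and 0.36 ± 0.76, likewise) were highest.

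Partners of Dab2 in endocytosis (18 tested of 23 listed) had medians of 0.21 on nocodazole replicate 1, -0.22 over nocodazole replicates 2 to 4 and -0.092 untreated, and the PTH receptor pathway (11 tested of 20) medians of -0.055, -0.069 and -0.043. Errors of their genes are SDs over 3 nocodazole arrays and 4 untreated arrays. Dab1, the neuronal relative of Dab2, was lowest in the first list, at -0.38 ± 0.65 on nocodazole replicates 2 to 4 and -0.76 ± 0.58 untreated. The clathrin heavy chain gene Cltc followed, at -1.50 ± 2.02 and -0.034 ± 0.85. At the top were the clathrin light chain gene Clta, at 0.26 ± 1.02 and 0.64 ± 0.72, and the adaptor subunit gene Ap2s1, at 2.23 ± 1.39 and -0.24 ± 0.99. In the second list Prkar1a, a regulatory subunit of protein kinase A, was lowest, at -0.10 ± 0.10 and -0.55 ± 0.83, followed by the phosphodiesterase gene Pde4d, at -0.64 ± 0.56 and -0.12 ± 0.77. The cyclase gene Adcy9, at 0.51 ± 0.35 and 0.12 ± 1.59, and the phosphodiesterase gene Pde4a, at 0.82 ± 1.28 and 0.24 ± 0.35, were highest.

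Markers of other cells that an ES culture can hold were read beside them, since Sparc and Serpinh1 are also made by fibroblasts. Of 33 fibroblast genes 26 had a probe and 24 were tested. Of these, 16 were positive on nocodazole replicate 1, 17 negative over nocodazole replicates 2 to 4 and 13 negative untreated (66.7%, 70.8% and 54.2% of the list), against 51.6%, 50.7% and 50.2% of all features, with medians of 0.033, -0.25 and -0.0995. On single arrays the median lay between -0.45 and -0.18 for nocodazole replicates 2 to 4 and between -0.16 and -0.035 untreated. The matrix glycoprotein gene Thbs1 was lowest, at -0.65 ± 0.20 and -0.62 ± 0.064, and Col1a1 followed at -0.37 ± 2.16 (SD, n = 3) and -0.31 ± 2.82 (SD, n = 3). Fap (0.54 ± 0.65 and 0.058 ± 0.11) and the lysyl oxidase gene Lox (0.031 ± 0.497 and 0.55 ± 0.45) were highest. The part of fibroblasts in the ratios of the 8 genes was not tested.

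Only 2 of 16 trophectoderm genes could be tested, Krt8, which is also in the parietal list, and Ascl2 at 0.064 ± 0.15 on nocodazole replicates 2 to 4 (SD, n = 3) and -0.050 ± 0.24 untreated (SD, n = 4). Genes of naive pluripotency (10 tested of 23 listed) had medians of -0.077 on nocodazole replicate 1, 0.069 over nocodazole replicates 2 to 4 and 0.19 untreated. With the deposited signs these were opposite to the medians of the 8 genes. Of 10 untreated means 2 were negative, against 50.2% of all features. With the arrays of HM-1 in Cy3 turned, the last medians were -0.045 and 0.054, of the same signs as those of the 8 genes (-0.11 and 0.039). Sall4 (0.078 ± 0.10 and -0.18 ± 0.38) and Sox2 (-0.28 ± 0.063 and 0.17 ± 0.63) were lowest, and Lin28a (0.12 ± 0.93 and 0.92 ± 1.31) and Esrrb (2.03 ± 0.93 and 0.068 ± 0.17) highest, again with nocodazole replicates 2 to 4 (SD, n = 3) before untreated arrays (SD, n = 4, or n = 3 for Lin28a).

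**Figure D4:**
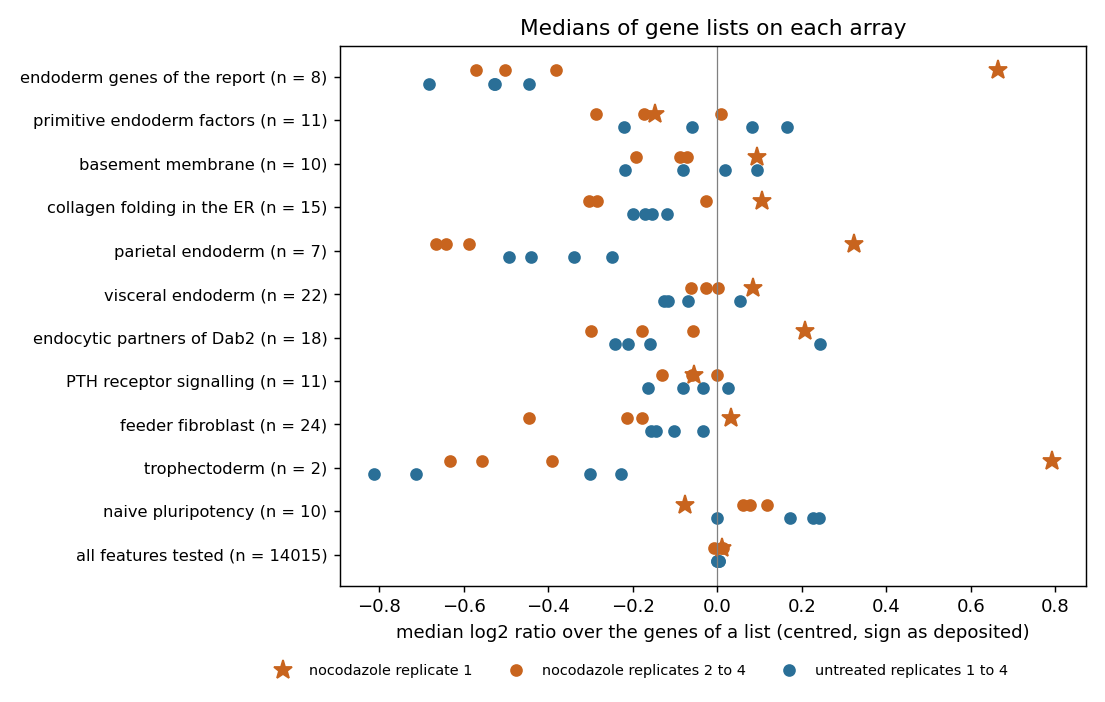
The median log2 ratio over the tested genes of each list (horizontal axis, number of genes beside the name) on nocodazole replicate 1 (star), nocodazole replicates 2 to 4 (orange circles) and untreated replicates 1 to 4 (blue circles). The medians of the 8 genes, of the parietal list and of the 2 trophectoderm genes are negative on 7 arrays. On nocodazole replicate 1 they are positive (0.67, 0.32 and 0.79). The collagen folding and fibroblast lists have the same signs on each array, with 0.11 and 0.033 on nocodazole replicate 1. All features together stay between -0.007 and 0.0125.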

How the data were processed

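The deposited table, the series matrix, holds 1 log2 ratio per probe and array with 1 offset added per array. The scale and the offset were read from the deposited values. How the authors scanned, corrected and normalized the arrays was not stated in the labels. Ratios with a denominator of 0, deposited as a ratio of 100000, were set to missing, and each array was centred on its median. As deposited, the medians lay between -0.19 and 0.12. Between 17759 and 19342 values remained per array. Spot brightness was not used here, and the number of arrays limits the precision.

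Symbols came from the platform's annotation (1 symbol for 14030 probes, several for 5, none for 6320), and 13994 probes took the current symbol of the RefSeq table of GRCm38.p6. Probes of one symbol were averaged, and 14015 of 16255 features had values on at least 3 arrays of each group. limma 3.58.1 (lmFit, eBayes; R 4.3.3) was fitted over all 8 arrays with a coefficient per group and a dye term. p-values are two-sided and Benjamini-Hochberg adjusted, and the fit was tested on simulated data. Members, lists and tests were chosen with earlier results of these data known. Named are the 8 genes, the 3 closest genes of 4 of them, and the 2 lowest and 2 highest of each list by mean over all arrays. The alternatives concerned coded values, signs, dye term, centring, scaling, filters, probes, weights, replicate numbers and single arrays.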

Additional observations from a re-analysis of the deposited data

Results flagged for a closer look

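Dixon's ratio was used to find single arrays far from the other three of their condition. Of 36 groups (the 8 genes and the medians of 10 lists, in each condition) 7 held such an array. Chance gives about 1 in 20 groups, but the count is no test, since 6 of the 7 are nocodazole replicate 1 and the genes had been picked with these ratios known.

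On nocodazole replicate 1 Sparc was at 1.23, against -1.25 to -1.12 on the other three nocodazole arrays, Serpinh1 at 1.25 (others -1.09 to -0.71), Dab2 at 1.27 (others -1.22 to -0.82) and Apoe at 0.51 (others -0.43 to -0.38). The median of the parietal endoderm list was 0.32 there (others -0.67 to -0.59) and that of the 2 trophectoderm genes 0.79 (others -0.63 to -0.39). Krt8 is in both lists. Gata6 was at -0.53 on untreated replicate 1, against 0.22 to 0.33 on the other untreated arrays.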

How the results depend on the processing

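Features past the threshold in limma numbered 0 for each of the 4 comparisons. The change of the ratio had 0 under every alternative except without untreated replicate 1 (range 0 to 1 with single arrays left out). The dye label had 1 with array weights and 0 to 2 with single arrays left out, 2 of them without untreated replicate 1. The ratio with nocodazole had 1 with nocodazole replicate 1 turned, 1 with values on all 8 arrays and 1 with only probes that have a value on all 8 arrays (added after seeing the data). At an unadjusted p under 0.05 the change had 300 to 719 features, the dye label 731 to 1977, the ratio with nocodazole 287 to 807 and the untreated ratio 620 to 1468. None of the 8 genes passed for the change or the dye label in any alternative. The number of arrays limits what can be seen: the interval of the change reaches 1.84 for Dab2.

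The change of the ratio had the other sign with nocodazole replicate 1 turned for Sparc (-0.42), Serpinh1 (-0.25), Dab2 (-0.073), Apoe (-0.055), Col4a1 (0.33) and Gata6 (0.082). Other reversals of the change were Sparc with scaled arrays (-0.029), Col4a1 with coded values kept (1.27) and with only probes on all 8 arrays (0.011), Gata6 with the Cy3 arrays turned (0.084) and uncentred (0.011), and Afp with array weights (-0.0093). With single arrays left out the change lay between -0.41 and 0.41 for Sparc, -0.14 and 0.49 for Serpinh1, -0.019 and 0.73 for Dab2, 0.091 and 0.58 for Pth1r, -0.45 and 0.13 for Col4a1, -0.23 and 0.17 for Gata6, -0.052 and 0.18 for Afp, and -0.025 and 0.25 for Apoe.

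The dye coefficient had the other sign with the Cy3 arrays turned for Sparc (-1.61), Serpinh1 (-1.43), Dab2 (-1.76), Pth1r (-1.10), Apoe (-0.68), Col4a1 (0.14) and Gata6 (0.11), since turning signs by dye moves the mean ratio into this term. Further reversals were Col4a1 with coded values kept (2.31), nocodazole replicate 1 turned (0.29), uncentred (0.076), with quantile normalization (0.060) and with array weights (0.0011), and Afp uncentred (0.098) and with the median of probes (0.023). With single arrays left out it lay between -0.23 and 0.16 for Col4a1, -0.16 and 0.047 for Afp, 0.045 and 0.56 for Sparc, 0.41 and 0.83 for Serpinh1, 0.073 and 0.57 for Dab2, 0.084 and 0.43 for Pth1r, 0.12 and 0.31 for Apoe, and -0.52 and -0.17 for Gata6.

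Same-numbered replicates correlated at -0.051 to 0.13 in their deviations, against -0.13 to 0.14 for replicates of unlike number. The arrays numbered 3 carried opposite dye labels, so these values do not settle whether the numbers pair the arrays. With a replicate block 0 features passed in each comparison. The block reversed the change of Afp (-0.070) and the dye coefficients of Sparc (-0.86), Serpinh1 (-0.19), Dab2 (-0.78), Pth1r (-0.24), Apoe (-0.28), Col4a1 (0.42) and Afp (0.47). With the block, the dye coefficient rests on how the arrays numbered 3 differ from the other pairs, since only they carried opposite dye labels. Its SE for Sparc was 1.14, against 0.62 without the block. The cause of the other reversals was not tested, except where nocodazole replicate 1 or the turned arrays enter by construction.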

Other observations

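Some further genes of the lists were positive on nocodazole replicate 1 and negative on average over the other nocodazole arrays and over the untreated arrays. Other genes of the same lists were not, such as Lrp1 (-0.12 on nocodazole replicate 1 and 0.16 untreated). These genes were picked with their values in view, and their pattern is a description. Lrp2, the large endocytic receptor that Dab2 serves in visceral endoderm, was at 0.54 on nocodazole replicate 1, at -0.39 ± 0.15 on nocodazole replicates 2 to 4 (SD, n = 3) and at -0.29 ± 0.22 untreated (SD, n = 4; highest array 0.032). Cubn, which works with Lrp2 in the uptake of proteins, was at 1.68, -0.88 ± 0.27 (SD, n = 3) and -0.53 ± 0.92 (SD, n = 4; highest array 0.51). The sialomucin gene Podxl was at 0.78, -0.59 ± 0.33 (SD, n = 3) and -0.77 ± 0.27 (SD, n = 4).

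Among the enzymes that modify procollagen, P4ha2, a catalytic subunit of prolyl 4-hydroxylase, was at 0.61 on nocodazole replicate 1, at -0.42 ± 0.16 on nocodazole replicates 2 to 4 (SD, n = 3) and at -0.42 ± 0.23 untreated (SD, n = 4). Colgalt1, which adds galactose to collagen, was at 0.48, -0.485 ± 0.16 (SD, n = 3) and -0.43 ± 0.22 (SD, n = 4). Both had 4 negative untreated arrays, as 907 of the 14015 tested features did. The fibroblast gene Timp2, an inhibitor of metalloproteinases, was at 0.79, -0.75 ± 0.17 (SD, n = 3) and -0.54 ± 0.19 (SD, n = 4). Col1a1 of the same list was at -1.25 on nocodazole replicate 1. Over all 11681 features with a value on every array, 2.6% were negative on 7 arrays and positive on nocodazole replicate 1.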
